A study of Mus musculus with 12 samples.

Results

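The genes described here are the 9 non-clustered delta protocadherins, Pcdh1, Pcdh7, Pcdh9 and Pcdh11x of the delta-1 branch and Pcdh8, Pcdh10, Pcdh17, Pcdh18 and Pcdh19 of the delta-2 branch, in the palatal shelves of mouse embryos at gestational day 12. They were chosen by gene symbol from the 56691 genes of each table, and all 9 were among the 17335 genes with enough counts to be tested. Their levels in these libraries were known when they were chosen, so their values are given as a description and no p-value of a member is printed. The 12 libraries formed 4 groups of 3. The knockout embryos were untreated and carried a conditional knockout of Dnmt1. Dnmt1 is the maintenance enzyme that restores DNA methylation after each round of replication. The AzadC embryos were wild type and exposed to 5-aza-2'-deoxycytidine, a nucleoside that traps the DNA methyltransferases once built into DNA. The vehicle embryos were wild type and were given the vehicle of that drug, and the control embryos were wild type and untreated. What drives the conditional deletion and in which cells, which exons it removes, and how, when and at what dose AzadC and vehicle were given are details not given in the sources used. Each library was a pool of 2 embryos of one genotype per the labels' protocols, whereas the series' design text mentions 3 (pooled) animals.

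Protocadherins are the largest branch of the cadherin superfamily of calcium-dependent adhesion proteins in the plasma membrane. The clustered protocadherins lie in tandem arrays and are known for stochastic promoter choice set by DNA methylation, whereas the delta protocadherins are single genes scattered over the genome. Delta protocadherins adhere weakly, mostly to copies of themselves on the next cell, and are known for sorting cells, guiding axons and steering tissue movements in embryos. Delta-1 cytoplasmic tails carry a motif that binds protein phosphatase 1, and several delta-2 tails recruit the WAVE complex, which starts branched actin growth. The palatal shelves are outgrowths of the upper jaw made of neural crest mesenchyme under an epithelium, and they grow, lift and fuse to form the roof of the mouth.

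Library totals ran from 12640536 expected counts in AzadC replicate 1 to 33113790 in control replicate 1. CPM, the count of a gene relative to its TMM-adjusted library total, compares a gene between libraries, and TPM also divides by transcript length and so compares genes with each other. Dnmt1 stood at 179.6 to 201 CPM in the knockout libraries, 408 to 482 CPM in the AzadC libraries, 448 to 452 CPM in the vehicle libraries and 258 to 286 CPM in the control libraries. Its reads were therefore lowest in the knockout, as labelled, and lower in control than in the AzadC and vehicle groups. Much of the transcript remained in knockout, with means of 190.5 CPM there and 274 CPM in control. The wild type vehicle mean, 450.5 CPM, lay further from control than the knockout mean did. All 8 palatal mesenchyme markers were detected in every group. Their summed level was 2822 to 3140 CPM in knockout, 3394 to 3419 CPM in AzadC, 2559 to 3386 CPM in vehicle and 3527 to 3953 CPM in control. In RNA from whole tissue, fewer cells of a type and less RNA per cell cannot be told apart.

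Pcdh9, Pcdh17 and Pcdh18 passed the threshold in knockout against control and have a window in the RefSeq promoter table. Pcdh10, the neighbour of Pcdh18 on chromosome 3, did not pass there, although it passed as higher against the vehicle libraries. The promoters of these 4 members are shown. Each is the 250 bases before the RefSeq transcript start on build GRCm38.p6, which is mm10, read 5′ to 3′ on the strand of the gene. Capitals mark CG dinucleotides, the bases on which DNA methylation sits. The Pcdh9 window is chr14:93890680-93890929 on the minus strand, Pcdh17 is chr14:84443313-84443562 on the plus strand, Pcdh18 is chr3:49757317-49757566 on the minus strand and Pcdh10 is chr3:45378148-45378397 on the plus strand.
Pcdh9: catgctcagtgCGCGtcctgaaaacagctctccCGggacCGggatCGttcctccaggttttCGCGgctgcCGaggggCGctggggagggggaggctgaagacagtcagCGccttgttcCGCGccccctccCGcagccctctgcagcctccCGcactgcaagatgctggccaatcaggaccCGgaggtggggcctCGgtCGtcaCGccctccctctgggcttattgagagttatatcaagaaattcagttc
Pcdh17: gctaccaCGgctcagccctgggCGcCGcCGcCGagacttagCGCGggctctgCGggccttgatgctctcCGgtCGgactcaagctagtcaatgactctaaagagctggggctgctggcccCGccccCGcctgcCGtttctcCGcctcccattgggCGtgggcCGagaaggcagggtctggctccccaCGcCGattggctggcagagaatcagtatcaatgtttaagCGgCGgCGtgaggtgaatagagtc
Pcdh18: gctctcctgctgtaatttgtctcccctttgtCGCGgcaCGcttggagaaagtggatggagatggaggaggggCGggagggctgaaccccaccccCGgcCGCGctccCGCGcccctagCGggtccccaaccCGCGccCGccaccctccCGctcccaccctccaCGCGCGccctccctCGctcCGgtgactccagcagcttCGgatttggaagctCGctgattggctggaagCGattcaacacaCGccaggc
Pcdh10: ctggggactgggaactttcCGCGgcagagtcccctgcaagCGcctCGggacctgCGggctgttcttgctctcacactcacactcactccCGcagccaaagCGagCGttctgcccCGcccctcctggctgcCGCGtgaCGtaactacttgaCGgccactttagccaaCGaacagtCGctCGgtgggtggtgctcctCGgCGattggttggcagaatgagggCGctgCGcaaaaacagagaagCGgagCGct
The motif searched was CG, which reads the same on both strands. Pcdh9 held 18 CG, Pcdh17 21, Pcdh18 23 and Pcdh10 22, against a median of 6 over the 32851 windows of the table, whose quartiles were 2 and 16. Of all windows, 21.7% held at least as many as Pcdh9, 16.3% as many as Pcdh17, 13.3% as many as Pcdh18 and 14.8% as many as Pcdh10. Pcdh10 therefore lay within the range of Pcdh9, Pcdh17 and Pcdh18 in CG number, while Pcdh11x, which also passed, has no window to compare. Pcdh19 held 16 CG, Pcdh8 11 and Pcdh7 7, all fewer than Pcdh9, and none of them passed in knockout against control. At least as many were held by 25.4%, 35.6% and 46.3% of windows. The Pcdh7 and Pcdh18 windows reach past the start of the gene in GENCODE M21, because the RefSeq start lies further in, and the Pcdh18 window does so by a few bases only. Windows of 7 of the 9 members were matched, without Pcdh1 and Pcdh11x, and methylation itself was not measured in these libraries.

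**Figure D1:**
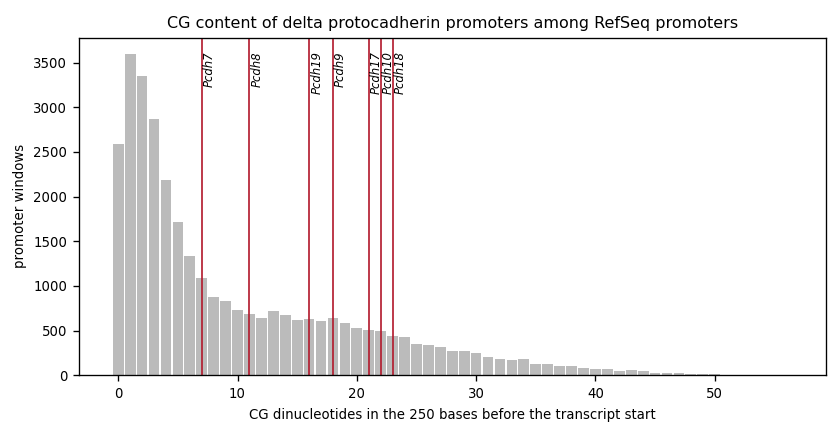
The bars give the number of RefSeq promoter windows at each count of CG dinucleotides in the 250 bases before the transcript start, and the red lines mark 7 delta protocadherins. Pcdh7 with 7 CG lies next to the median of 6, and Pcdh17, Pcdh10 and Pcdh18 with 21 to 23 lie above the upper quartile of 16.

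The members lie on 5 chromosomes of mm10, and none is in tandem with another. Pcdh8 (79766775 to 79771312, minus strand), Pcdh17 (84443563 to 84539002, plus strand) and Pcdh9 (93013410 to 93890679, minus strand) share chromosome 14. Between Pcdh8 and Pcdh17 lie 4.67 Mb with 1 protein-coding gene, Olfm4, and between Pcdh17 and Pcdh9 lie 8.47 Mb with 3, Diaph3, Tdrd3 and Pcdh20. Pcdh10 (45378398 to 45435623, plus strand) and Pcdh18 (49743296 to 49757325, minus strand) are on chromosome 3, 4.31 Mb apart with 1 protein-coding gene between them, Pabpc4l. Pcdh11x (120290259 to 120910619, plus strand) and Pcdh19 (133582860 to 133688987, minus strand) are on the X chromosome, 12.7 Mb apart with 20 protein-coding genes between them. Pcdh7 is on chromosome 5 (57717967 to 58133230, plus strand) and Pcdh1 on chromosome 18 (38185914 to 38212053, minus strand). Gene spans ran from 4.54 kb for Pcdh8 to 877 kb for Pcdh9, with Pcdh11x (620 kb) and Pcdh7 (415 kb) also long. Exons of Pcdh7, Pcdh8, Pcdh10 and Pcdh19 overlap exons of a non-coding gene on the opposite strand, by 2235, 436, 154 and 57 bases. Whether the counting used strand is not given in the sources used. The overlapping gene had 14 to 69 counts per library for Pcdh7, 0 to 2 for Pcdh10 and 0 in every library for Pcdh8, and that of Pcdh19 was not analysed here.

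Per transcript length, Pcdh18 was the most abundant member in all 4 groups. Pcdh18, a delta-2 protein whose tail binds the Reelin adaptor Dab1 in the mouse, averaged 89.97 ± 6.42 TPM in knockout, 133 ± 3.81 TPM in AzadC, 127 ± 8.32 TPM in vehicle and 124 ± 22.4 TPM in control (SD, n = 3 each). It made up 58.7%, 69.9%, 68.2% and 62.4% of the summed TPM of the family in knockout, AzadC, vehicle and control, and its libraries overlapped those of no other member. Pcdh7, which binds the chromatin and phosphatase regulator Set, came next in every group, at 19.6 ± 0.85 TPM in knockout and 22.5 ± 5.54 TPM in control, again without overlap with the member after it. At the other end Pcdh11x and then Pcdh8 were the lowest in all 4 groups, each separated from its neighbour in the order.

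Between these extremes the order of levels was resolved only in part. In control, Pcdh1 (13.0 ± 1.72 TPM), Pcdh10 (9.52 ± 3.67 TPM), Pcdh19 (9.39 ± 1.93 TPM), Pcdh17 (9.02 ± 2.86 TPM) and Pcdh9 (7.30 ± 1.84 TPM) followed each other, and each overlapped the next. In knockout the order ran Pcdh1 (14.5 ± 1.85 TPM), Pcdh19 (11.8 ± 0.62 TPM), Pcdh10 (8.78 ± 3.69 TPM), Pcdh17 (5.38 ± 1.13 TPM) and Pcdh9 (2.11 ± 0.61 TPM). There Pcdh1 lay clear of Pcdh19, and Pcdh9 lay clear below Pcdh17, while Pcdh19, Pcdh10 and Pcdh17 overlapped in turn. In AzadC, Pcdh1 and Pcdh19 overlapped at 11.97 ± 1.05 and 11.3 ± 1.20 TPM, and Pcdh10, Pcdh9 and Pcdh17 overlapped at 6.32 ± 0.93, 5.29 ± 3.45 and 4.75 ± 0.61 TPM. Pcdh19 lay clear of Pcdh10 there. In vehicle the 5 genes from Pcdh1 (11.8 ± 1.02 TPM) through Pcdh19, Pcdh9 and Pcdh17 to Pcdh10 (5.70 ± 1.22 TPM) overlapped in a chain.

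**Figure D2:**
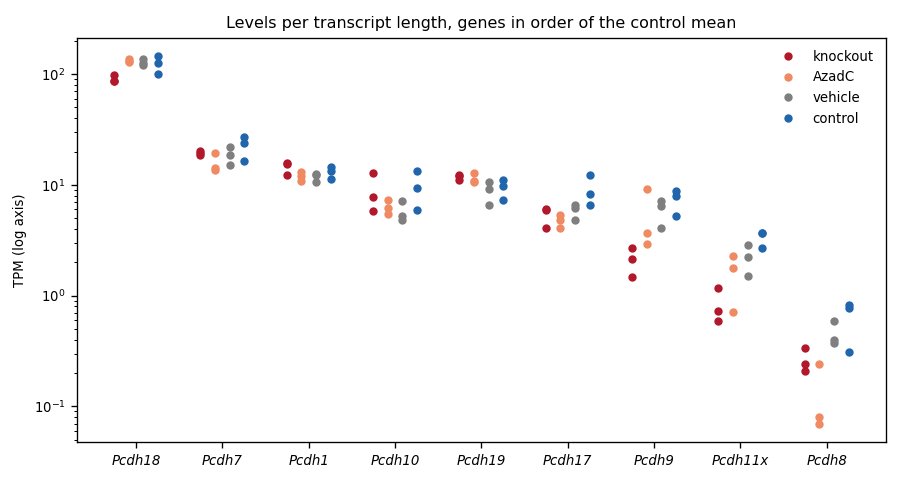
Each point is the TPM of 1 library on a log axis, for the 9 members in the order of the control mean, with knockout, AzadC, vehicle and control from left to right within a gene. Pcdh18 lies above all other members, between 86.0 and 145.7 TPM, and Pcdh8 lies below 1 TPM in every library.

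The summed TPM of the 9 genes was 148 to 159 in knockout, 185.6 to 193.6 in AzadC, 172 to 198 in vehicle and 164 to 224 in control. The knockout libraries were the lowest 3 of the 12, and control replicate 1 was close above them. The delta-1 branch supplied 24.1 ± 1.32% of that sum in knockout, 18.2 ± 2.62% in AzadC, 20.7 ± 1.99% in vehicle and 23.3 ± 2.33% in control, with knockout and control overlapping. Within the delta-1 branch, Pcdh9 and Pcdh11x together held 5.94% to 10.1% of the TPM in knockout, 13.0% to 29.8% in AzadC, 16.01% to 26.8% in vehicle and 20.3% to 24.9% in control. The share in knockout was below that of every library of the other 3 groups. Pcdh9 and Pcdh11x are the delta-1 members that passed as lower in knockout, as given below. The lower share restates that fall and is no separate result.

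The first comparison set knockout against control and asked which transcripts differ when Dnmt1 is deleted. Of the 9 members, 4 passed the threshold (edgeR quasi-likelihood test, Benjamini-Hochberg adjusted p below 0.05 over all tested genes), and all 4 were lower in knockout. They were Pcdh9, Pcdh11x, Pcdh17 and Pcdh18. Over all genes 14.3% passed in either direction and 6.43% passed as lower, and since the members were chosen with these values known nothing is read from that difference. The 3 libraries of each group did not overlap for 5 members, the same 4 and Pcdh19, which was higher in knockout, against 31.9% of all genes. The median log2 change of the 9 members was -0.42, against -0.0026 over all genes tested.

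Pcdh9, a delta-1 gene studied mostly in neurons of the cortex, had 6.21, 5.86 and 4.15 CPM in the knockout libraries and 14.9, 23.6 and 19.6 CPM in the control libraries. All 3 knockout libraries were low, and they lay below all 9 other libraries of the series, whose lowest value was 9.27 CPM. The share of all genes whose knockout libraries lie apart from all 9 others was not computed. The log2 change was -1.83 (SE 0.26), which is 0.28 times the control level. The call was kept in all 20 alternative settings, and against the vehicle libraries in place of control the log2 change was -1.44 (SE 0.26).

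Pcdh11x, a delta-1 gene on the X chromosome, had 3.01, 2.56 and 3.26 CPM in knockout and 6.74, 10.5 and 10.9 CPM in control. The groups did not overlap, although control replicate 1 was well below the other control libraries, and AzadC replicate 2 with 3.09 CPM lay within the knockout range. The log2 change was -1.67 (SE 0.27), or 0.31 times the control level. This call too was kept in all 20 alternative settings, with -1.12 (SE 0.27) against the vehicle libraries.

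Pcdh17, a delta-2 gene that recruits the WAVE complex to contacts between axons in the mouse, had 28.9, 44.8 and 43.7 CPM in knockout and 47.3, 56.6 and 83.6 CPM in control. The groups were separate by a narrow gap, and control replicate 3 stood well above the other control libraries. The log2 change was -0.67 (SE 0.21). The call was kept in 8 of 20 settings. It was lost at a log2 change of -0.40 without control replicate 3, -0.74 without control replicate 2, and -0.49, -0.78 and -0.76 without knockout replicate 1, 2 or 3. It was also lost at -0.64 with limma-voom, at -0.67 with only knockout and control fitted, and at -0.67 without AzadC replicate 1 or 3 or vehicle replicate 2 or 3, which enter through the shared spread. Against the vehicle libraries the log2 change was -0.10 (SE 0.21), and the vehicle libraries (34.8, 47.1 and 43.2 CPM) overlapped those of knockout.

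Pcdh18, the most abundant member, had 302, 274 and 271 CPM in knockout and 315, 439 and 376 CPM in control. The knockout libraries were below all 9 others, but control replicate 1 was only just above the highest of them. The log2 change was -0.42 (SE 0.10), or 0.75 times the control level. The call was kept in 17 of 20 settings and was lost at a log2 change of -0.41 when only knockout and control were fitted, -0.39 without knockout replicate 2 and -0.29 without control replicate 2. Against the vehicle libraries the log2 change was -0.46 (SE 0.10), past the threshold.

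**Figure D3:**
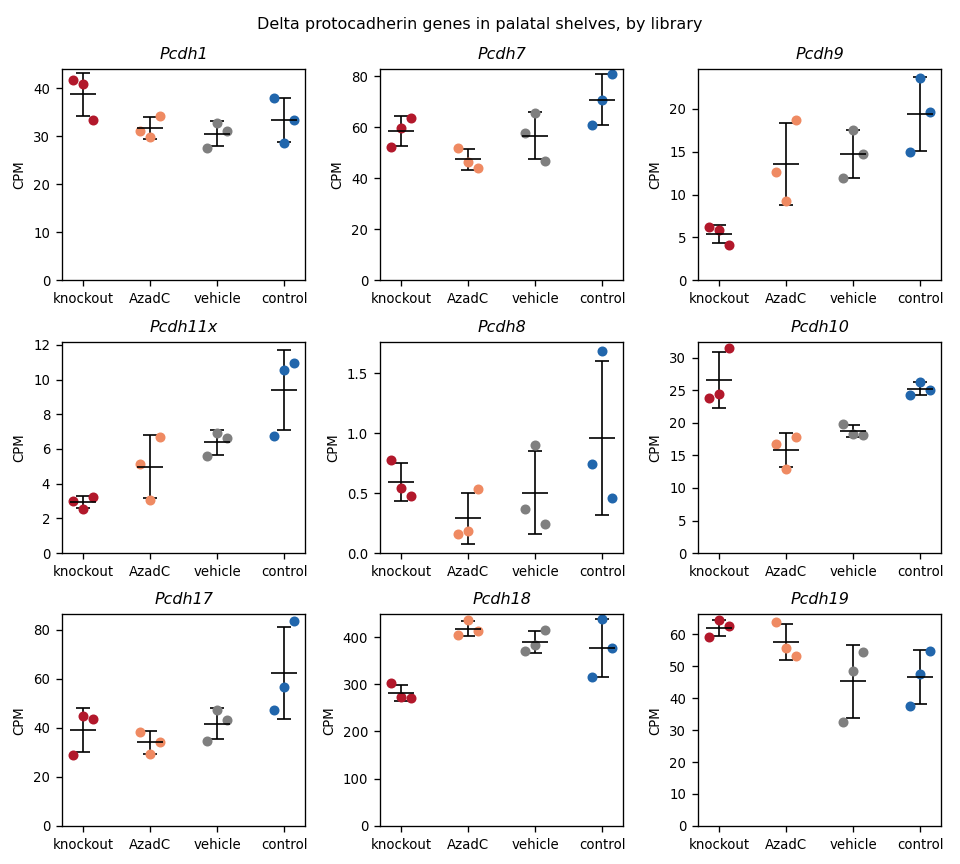
Each point is the CPM of 1 library, and the black marks give the mean and SD of 3 libraries, for knockout, AzadC, vehicle and control from left to right in each panel. Knockout libraries of Pcdh9 (4.15 to 6.21 CPM) and Pcdh18 (271 to 302 CPM) lie below the libraries of the other 3 groups.

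The other 5 members did not pass in knockout against control. Pcdh19, a delta-2 gene that in humans causes an X-linked epilepsy and works with N-cadherin in the zebrafish neural plate, had 59.2, 64.3 and 62.5 CPM in knockout and 37.6, 47.6 and 54.7 CPM in control. Its groups did not overlap, and the log2 change was 0.42 (SE 0.16). Pcdh10, which binds the WAVE complex and guides axons of the mouse forebrain, had 23.8, 24.4 and 31.5 CPM in knockout and 24.3, 26.3 and 25.0 CPM in control. Its groups overlapped, at a log2 change of 0.08 (SE 0.13), while its chromosome 3 neighbour Pcdh18 passed as lower.

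Among the delta-1 members that did not pass, Pcdh1, an adhesion protein of epithelia such as the human airway, had 41.8, 41.0 and 33.5 CPM in knockout and 37.9, 28.7 and 33.4 CPM in control. Pcdh7, whose frog counterpart is needed for adhesion in the ectoderm, had 52.0, 59.7 and 63.5 CPM in knockout and 60.8, 70.6 and 81.0 CPM in control. Both overlapped, with log2 changes of 0.22 (SE 0.12) and -0.28 (SE 0.13). Pcdh8, the mammalian relative of the frog paraxial protocadherin of the mesoderm, had 17, 11 and 8 counts in knockout and 25, 44 and 8 in control, which is too few to resolve its log2 change of -0.69 (SE 0.60).

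Against the vehicle libraries in place of control, 4 members passed where 10.8% of all genes did. Pcdh9, Pcdh11x and Pcdh18 were lower in knockout, and Pcdh10 was higher, with 26.6 ± 4.28 CPM in knockout and 18.8 ± 0.96 CPM in vehicle and a log2 change of 0.50 (SE 0.13). The wild type group chosen thus changed the call of Pcdh10 and Pcdh17 and not that of Pcdh9, Pcdh11x and Pcdh18. The log2 changes of Pcdh9 and Pcdh11x were nearer to 0 against vehicle. Those of Pcdh7 and Pcdh8, not past the threshold against either group, changed sign, to 0.04 (SE 0.13) and 0.21 (SE 0.63). Pcdh19 stood at a log2 change of 0.45 (SE 0.16) and Pcdh1 at 0.34 (SE 0.12) against vehicle, neither past the threshold.

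Markers of several cell types moved in the same comparison. In knockout against control, 8 of 8 macrophage markers were higher, and their summed level was 242 to 272 CPM in knockout and 53.2 to 71.5 CPM in control. Of the myogenic markers 7 of 8 were higher, at 136 to 804 CPM in knockout and 4.96 to 79.9 CPM in control. All 7 chondrogenic markers that were tested, of 8 listed, were lower, at 448 to 690 CPM in knockout and 1019 to 3069 CPM in control, and 4 of 6 tested osteogenic markers were lower, at 63.4 to 74.2 CPM in knockout and 132 to 201 CPM in control. Of the palatal mesenchyme markers 4 of 8 were lower, with sums of 2822 to 3140 CPM in knockout and 3527 to 3953 CPM in control. Of the endothelial markers 1 of 8 was lower. All 8 endothelial markers had negative log2 changes, and their sums were 349 to 426.5 CPM in knockout and 443 to 455 CPM in control. For the nervous system, where several members are best known, 1 neuronal marker was higher and 1 lower of 9 tested, and the sums overlapped at 57.0 to 72.9 CPM in knockout and 47.4 to 79.4 CPM in control. None of 7 Schwann and glial markers passed, with sums of 131 to 161 CPM in knockout and 83.2 to 139.6 CPM in control, and none of 9 epithelial markers did, at 168 to 346 CPM in knockout and 197.5 to 358 CPM in control. No marker was at 0 over a whole group except Matn1, a chondrogenic marker, in AzadC. The part of these cell types in the levels of Pcdh9, Pcdh11x, Pcdh17 and Pcdh18 was not tested.

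The second comparison set AzadC against vehicle and asked what the drug adds to its vehicle. No member passed the edgeR threshold, and none passed with DESeq2 or limma-voom or had an unadjusted p below 0.05. Over all genes 0.0115% passed the edgeR threshold and 6.37% had an unadjusted p below 0.05. Pcdh9 had 12.7, 9.27 and 18.7 CPM in AzadC and 11.9, 17.6 and 14.7 CPM in vehicle, which overlapped, at a log2 change of -0.11 (SE 0.25). Pcdh11x had 5.12, 3.09 and 6.71 CPM in AzadC and 5.57, 6.91 and 6.65 CPM in vehicle, also overlapping, at -0.35 (SE 0.26). For both genes AzadC replicate 2 was the lowest of these 6 libraries.

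The 3 libraries of each group did not overlap for 1 member, Pcdh10, where 11.9% of all genes did not. Pcdh10 had 16.8, 12.9 and 17.9 CPM in AzadC and 19.9, 18.3 and 18.1 CPM in vehicle, at a log2 change of -0.24 (SE 0.13). Pcdh18 had 405, 435 and 413 CPM in AzadC and 370.3, 382 and 415 CPM in vehicle, overlapping and at 0.10 (SE 0.10). Pcdh19 had 63.9, 55.8 and 53.1 CPM in AzadC and 32.6, 48.5 and 54.6 CPM in vehicle, at 0.34 (SE 0.16) with AzadC mostly above vehicle. Pcdh17 stood at -0.30 (SE 0.21), Pcdh7 at -0.26 (SE 0.13) and Pcdh1 at 0.06 (SE 0.12), all with overlapping libraries. Pcdh8 had 2 to 16 counts per library in AzadC and 6 to 28 in vehicle, at -0.69 (SE 0.67). No tested cell type marker passed here. All 8 macrophage markers had positive log2 changes, and 6 had an unadjusted edgeR p below 0.05. Their sums were 99.85 to 111.5 CPM in AzadC and 63.0 to 88.7 CPM in vehicle. Osteogenic sums were 92.1 to 119.1 CPM in AzadC and 61.2 to 81.7 CPM in vehicle. Palatal mesenchyme sums were higher in AzadC by a narrow gap, and the other lists overlapped. The part of these cell types in the members was not tested.

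The third comparison set vehicle against control, both wild type, and shares its control libraries with the knockout comparison. No member passed the edgeR threshold, where 3.52% of all genes did. At an unadjusted p below 0.05 there were 3 members, Pcdh7, Pcdh10 and Pcdh17, where 19.2% of all genes were. DESeq2 called 2 of them, Pcdh10 and Pcdh17, and 8.25% of the genes to which it gave an adjusted p. Pcdh10 had 19.9, 18.3 and 18.1 CPM in vehicle and 24.3, 26.3 and 25.0 CPM in control, and Pcdh17 had 34.8, 47.1 and 43.2 CPM in vehicle and 47.3, 56.6 and 83.6 CPM in control. In both genes all vehicle libraries were below all control libraries, for Pcdh17 by a narrow gap, and these were the 2 members without overlap, against 22.7% of all genes. Their log2 changes were -0.43 (SE 0.13) and -0.57 (SE 0.21). Pcdh11x stood at -0.55 (SE 0.26), Pcdh9 at -0.39 (SE 0.24), Pcdh7 at -0.32 (SE 0.13), Pcdh1 at -0.13 (SE 0.12), Pcdh18 at 0.05 (SE 0.10) and Pcdh19 at -0.03 (SE 0.16), each with overlapping libraries. For Pcdh8 the value was -0.90 (SE 0.60). In this comparison 4 of 6 tested osteogenic markers were lower, at 61.2 to 81.7 CPM in vehicle and 132 to 201 CPM in control. Of 9 neuronal markers 1 was higher and 2 were lower, 2 of 9 epithelial and 1 of 7 chondrogenic markers were lower, and 1 of 8 macrophage markers was higher. The summed levels of these 4 lists overlapped between the groups. Neuronal markers summed to 46.3 to 47.9 CPM in vehicle and 47.4 to 79.4 CPM in control, and epithelial markers to 292 to 319 CPM in vehicle and 197.5 to 358 CPM in control. Chondrogenic markers summed to 1509 to 1656 CPM in vehicle and 1019 to 3069 CPM in control, and macrophage markers to 63.0 to 88.7 CPM in vehicle and 53.2 to 71.5 CPM in control. None of the 8 palatal mesenchyme markers passed, and 6 had negative log2 changes. Their sums did not overlap, at 2559 to 3386 CPM in vehicle and 3527 to 3953 CPM in control. The myogenic, endothelial and Schwann and glial sums overlapped. The part of these cell types in the values of the members was not tested.

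**Figure D4:**
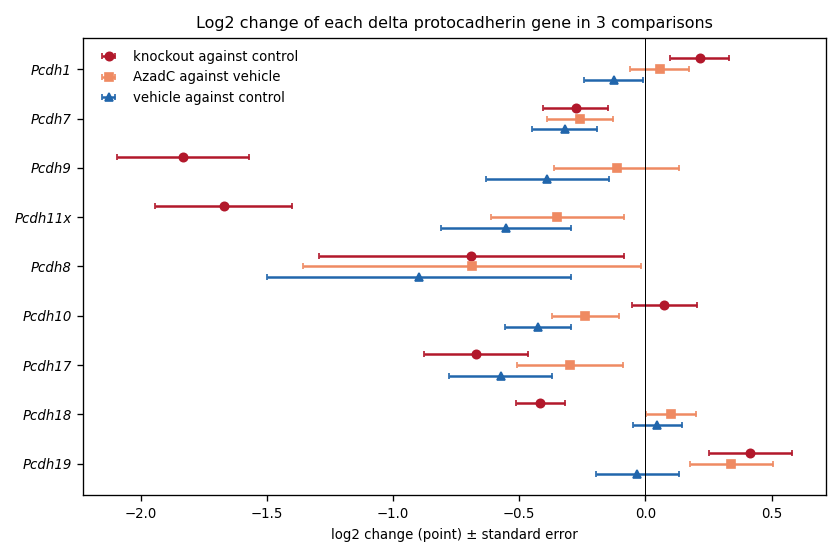
Points give the log2 change of each member and bars its standard error, for knockout against control, AzadC against vehicle and vehicle against control, with 0 marked by the vertical line. Pcdh9 and Pcdh11x in knockout against control, at -1.83 and -1.67, lie furthest from 0.

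The difference between the knockout change and the AzadC change, (knockout minus control) minus (AzadC minus vehicle), was fitted directly. It passed for 1 member, Pcdh9, at -1.72 log2 units (SE 0.36), where 4.4% of all genes passed. The call was kept in 17 of 18 settings and was lost, at -1.55, without control replicate 2. For Pcdh11x the difference was -1.32 (SE 0.38) and for Pcdh18 it was -0.52 (SE 0.14), both with an unadjusted p below 0.05, as 20.3% of all genes had, and neither past the threshold, although each passed in 4 of the 18 settings. The difference for Pcdh17 was -0.37 (SE 0.29), for Pcdh10 0.31 (SE 0.19) and for Pcdh19 0.08 (SE 0.23), so that for Pcdh17, which passed in the knockout comparison, the effects of knockout and AzadC were not shown to differ. Cell type markers passed for this difference too, with 4 of 8 palatal mesenchyme, 3 of 7 chondrogenic and 3 of 6 osteogenic markers negative and 3 of 8 macrophage, 2 of 8 myogenic and 1 of 9 neuronal markers positive, and none of the endothelial, epithelial or Schwann and glial markers. Their part in the difference of Pcdh9 was not tested.

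The average transcript length that the authors' tables give per gene, weighted by isoform, varied between libraries for some members. For Pcdh9 it was 3782 to 4518 bases in knockout, 3386 to 5600 in AzadC, 3507 to 4763 in vehicle and 3900 to 5026 in control. For Pcdh11x it was 4223 to 8607 bases in knockout and 4181 to 5071 in control, and for Pcdh10 3962 to 6671 in knockout and 3427 to 7157 in control, so that these groups overlapped. Knockout and control did not overlap for Pcdh7, with 4531 to 4971 bases in knockout and 5005 to 6020 in control, nor for Pcdh18, with 5007 to 5069 bases in knockout and 5080 to 5120 in control. The values of Pcdh18 stayed within 4994 to 5122 bases over all libraries. The share of all genes whose lengths separate knockout from control was not computed, so nothing is read from these gaps. Pcdh8 was assigned 3704 to 3976 bases in 9 libraries and 1132 to 1267 bases in vehicle replicates 1 and 3 and control replicate 3, with 44 counts or fewer per library behind each estimate. These lengths enter the TPM but not the CPM of a gene.

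The genes whose log2 CPM over the 12 libraries was most like that of a member, by Pearson correlation among 14409 named genes, differed from member to member. Most like Pcdh9 were Rxra (r = 0.96), a retinoid receptor, Fgf12 (0.96) and Pgghg (0.95). Most like Pcdh11x were Negr1 (0.98), a neuronal adhesion protein, Adgrb3 (0.95) and Lhfpl2 (0.95). Pcdh17 was followed by Aff3 (0.96), Gpc6 (0.95) and Alcam (0.94), and Pcdh18 by Ctps2 (0.96), Egfr (0.96), the receptor of epidermal growth factor, and Galnt5 (0.94). For the members that did not pass, the first gene was Gstp1 for Pcdh1 (0.90), Smim14 for Pcdh7 (0.91), Tmcc2 for Pcdh8 (0.92), Itfg1 for Pcdh10 (0.94) and Havcr2 for Pcdh19 (0.93). Among the members themselves Pcdh9 and Pcdh11x were the most alike pair (r = 0.92 over 12 libraries, and 0.93 over the 9 libraries without knockout). Pcdh7 and Pcdh17 gave 0.84 and 0.87, and Pcdh9 and Pcdh18 gave 0.77 over 12 libraries but 0.02 over the 9. These values are descriptions over libraries that share depth and group differences.

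Of 64 genes in 6 lists of related adhesion genes, 60 were tested, and 4 were higher and 9 lower in knockout against control. Over all genes 14.3% passed in either direction in that comparison. Among the other non-clustered protocadherins 2 of 3 fell, and against vehicle in place of control neither of them passed. Pcdh15, a cadherin of the tip links of hair cells, averaged 1.27 ± 0.17 CPM in knockout and 7.001 ± 4.52 CPM in control, with log2 change -2.45 (SE 0.50, edgeR adjusted p = 0.00574). It kept the call in 19 of 20 settings and lost it against vehicle, at -1.001 (edgeR adjusted p = 0.243). Pcdh12, an endothelial protocadherin, averaged 20.1 ± 0.89 CPM in knockout and 25.5 ± 2.51 CPM in control, with log2 change -0.34 (SE 0.11, edgeR adjusted p = 0.0483). That call was kept in 4 of 20 settings. It held with a mean above 1 CPM, with DESeq2, without AzadC replicate 2 and without vehicle replicate 3. It was lost in the other 16, which include leaving out any other single library, at log2 changes of -0.38 to -0.14 (adjusted p 0.0512 to 0.457, the highest against vehicle). The summed endothelial markers were lower in knockout too, and their part in Pcdh12 was not tested. Pcdh20, which lies between Pcdh17 and Pcdh9 on chromosome 14, averaged 0.77 ± 0.36 CPM in knockout and 1.48 ± 0.55 CPM in control and did not pass (edgeR adjusted p = 0.145).

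Of the 10 Fat, Dachsous and Celsr genes, which set planar polarity, 1 fell. This was Fat4, a giant cadherin that binds Dachsous, at 218 ± 24.9 CPM in knockout and 425 ± 110 CPM in control (log2 change -0.96, SE 0.15, edgeR adjusted p = 0.00103). Of the 20 tested classical and related cadherins, of 23 listed, 2 rose and 5 fell. Cdh11, the mesenchymal cadherin, averaged 466 ± 17.96 CPM in knockout and 604 ± 51.1 CPM in control (log2 change -0.37, SE 0.07, edgeR adjusted p = 0.00265). Against vehicle its log2 change was -0.12 and did not pass (edgeR adjusted p = 0.298). The summed palatal mesenchyme markers were lower in knockout than in control too, and their part in Cdh11 was not tested. Cdh10 averaged 9.34 ± 2.17 CPM in knockout and 21.4 ± 2.66 CPM in control (log2 change -1.20, SE 0.28, edgeR adjusted p = 0.0111), and -0.90 against vehicle, not past the threshold (edgeR adjusted p = 0.0540). Cdh15, the cadherin of muscle precursors, averaged 21.7 ± 15.7 CPM in knockout and 2.78 ± 1.71 CPM in control (log2 change 2.92, SE 0.74, edgeR adjusted p = 0.0186), and the myogenic markers moved with it. Its call was kept in 16 of 20 settings and was lost at 1.85 against vehicle, 2.19 without knockout replicate 1, 2.86 without control replicate 2 and 2.60 without control replicate 3 (edgeR adjusted p 0.0558 to 0.115).

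The WAVE complex and the other partners of the protocadherin tails were read next. Of the 11 WAVE complex genes 2 rose, Nckap1l, the subunit of blood cells, at 19.7 ± 2.09 CPM in knockout and 4.41 ± 0.94 CPM in control (log2 change 2.15, SE 0.22, edgeR adjusted p = 3.62e-05), and Abi2, with log2 change 0.32 (SE 0.09, edgeR adjusted p = 0.0266). The call of Abi2 was kept in 13 of 20 settings. It was lost at 0.21 against vehicle, at 0.33 with only knockout and control fitted, at 0.31 to 0.33 without any single knockout library, and at 0.27 without control replicate 1 or 2 (edgeR adjusted p 0.0552 to 0.157). The macrophage markers moved with Nckap1l, and their part in it was not tested. Of 6 tested catenins, which tie classical cadherins to actin, 1 fell, Ctnna2, with log2 change -1.04 (SE 0.18, edgeR adjusted p = 0.00222). None of the 10 reported binding partners passed, among them the protein phosphatase 1 catalytic subunits Ppp1ca (edgeR adjusted p = 0.223), Ppp1cb (0.836) and Ppp1cc (0.489), Set (0.540), the Reelin adaptor Dab1 (0.156) and the kinase Taok2 (0.275).

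In AzadC against vehicle none of the 60 tested genes passed the edgeR threshold, and 4 had an unadjusted p below 0.05, where 6.37% of all genes did. In vehicle against control 2 of the 60 passed, where 3.52% of all genes did. Cdh13 fell (log2 change -1.70, SE 0.37, edgeR adjusted p = 0.0277) and Ctnna1 rose (0.30, SE 0.05, edgeR adjusted p = 0.00977). Cdh13 lost the call at -1.46 without vehicle replicate 1, -1.67 without vehicle replicate 3 and -1.35 without control replicate 2 (edgeR adjusted p 0.0935 to 0.107). The difference between the knockout and AzadC changes passed for 3 of the 60, where 4.4% of all genes passed. These were Fat4 (-1.02, SE 0.21, edgeR adjusted p = 0.0180), Cdh11 (-0.50, SE 0.10, edgeR adjusted p = 0.0119) and Nckap1l (1.73, SE 0.31, edgeR adjusted p = 0.00794). Fat4 lost the call at -0.94 without knockout replicate 2 and -0.92 without AzadC replicate 3 (edgeR adjusted p 0.0569 and 0.0517).

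**Figure D5:**
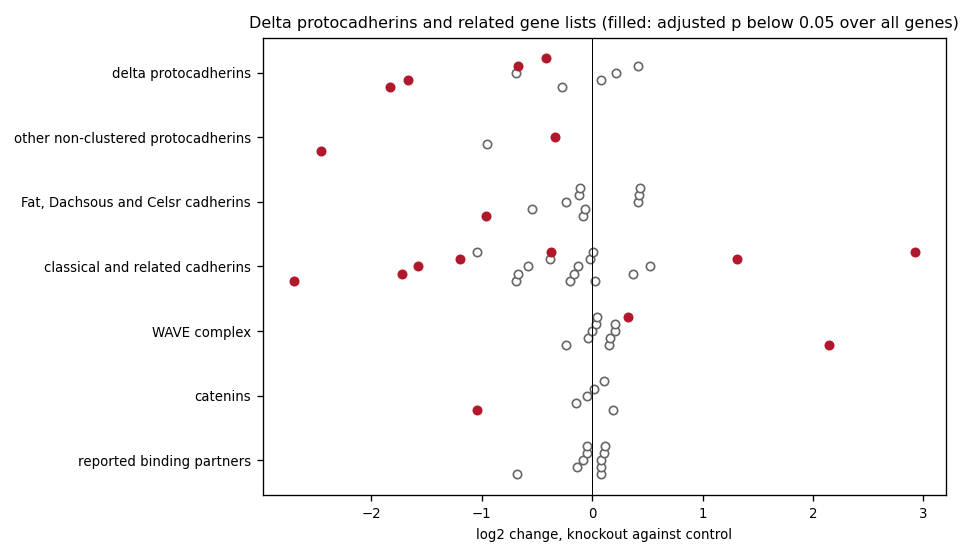
Each point is the log2 change of 1 gene in knockout against control, for the 9 members in the top row and the tested genes of 6 related lists below, filled where the adjusted p over all genes was below 0.05. The members reach from -1.83 for Pcdh9 to 0.42 for Pcdh19, and the filled points of the members all lie left of 0.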

How the data were processed

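RNA from 12 pools of palatal shelves was made into libraries with a NuGen mRNA kit, per the labels' protocols. The submitters' processing notes name STAR 2.7.0, RSEM 1.3.1 and mouse build mm10, besides FastQC, Trim Galore and DESeq2. The deposited values are RSEM expected counts per gene, with TPM, FPKM and isoform-weighted lengths beside them, per the file headers. RSEM shares reads among genes, so values need not be whole, and 97 of 108 member values were whole within 0.005. Expected counts were rounded and fitted with edgeR 4.0.16 in R 4.3.3 (filterByExpr by group, TMM factors 0.985 to 1.015, 1 mean per group over all 12 libraries, glmQLFit and glmQLFTest, common coefficient of biological variation 0.152). The threshold was a Benjamini-Hochberg adjusted p below 0.05 over 17335 genes. The SE is the absolute log2 change over the square root of F. It is unreliable where the change is close to 0, as in the difference for Pcdh8 (-0.0036, SE 75.67), which is not discussed above. TPM, FPKM and lengths were used as the authors deposited them. The p-values cover the spread between pooled libraries only. The fit was also run on simulated counts drawn independently for each library, and no result here rests on that run.

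Members and gene lists were chosen with earlier results of these data known. Named genes were all members, up to 3 genes per list and contrast with the smallest adjusted p past the threshold, and 3 most alike genes per member, leaving out unnamed, predicted, pseudogene and sex-specific genes; the report gives all 3 for 4 members and the first for the rest. Pcdh20, the binding partners and the pairs of members were named beside that rule after their values were seen. Over all groups, same-numbered libraries did not deviate together (5 of 18 correlations above 0.1), and the main fit used no pairing. Between knockout and control, however, same-numbered correlations were 0.28, 0.08 and 0.24, against -0.30 to 0.08 for different numbers. Whether the numbers pair these groups was therefore not settled. With a replicate block, 4 members passed in knockout against control. No pair of replicates agreed within sampling noise. Alternatives were DESeq2 1.42.0, limma-voom (limma 3.58.1), RLE scaling, only the groups compared, no filter, a filter on mean CPM above 1, a replicate block, vehicle in place of control and leaving out each library. FPKM in place of TPM was also planned, but the 2 are proportional within a library, so it bears on no order of levels. Coordinates are from GENCODE M21 and sequences from RefSeq GRCm38.p6.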

Additional observations from a re-analysis of the deposited data

How the results depend on the processing

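Of 679 recomputed log2 changes of the members, none that had passed the threshold reversed. In knockout against control, 4 members passed, 2 when only the groups compared were fitted, and 2 to 5 when 1 library was left out; the lowest value came without knockout replicate 2 and without control replicate 2. Pathway genes went from 13 to between 7 and 13 without 1 library, lowest again without those 2 libraries, and all genes from 2473 to between 1360 and 2551.

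In AzadC against vehicle, all genes past the threshold numbered 2, but 119 without a filter, 92 with DESeq2, 1 with the replicate block and 1 to 17 without 1 library (17 without vehicle replicate 1), and members stayed at 0. In vehicle against control, members went from 0 to 1 without a filter and 2 with DESeq2, pathway genes from 2 to 7 and 6 (1 to 3 without 1 library), and all genes from 610 to 1259 and 1313 (136 to 704 without 1 library). For the difference, members went from 1 to 3 without a filter, 2 with a mean above 1 CPM and 3 with DESeq2 (0 to 3 without 1 library, 0 without control replicate 2), pathway genes from 3 to 9 without a filter and 7 with DESeq2 (2 to 4 without 1 library), and all genes from 763 to 1438 and 1429 (328 to 878 without 1 library). The cause was not tested.

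The replicate block moved no other count by over 1.5 times. Depth limits Pcdh8, with 2 to 44 counts per library, and Pcdh11x, with 51 to 275.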
